A study of Mus musculus with 27 samples.

Results

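The genes described here are 7 megakaryocyte and erythroid genes, taken by name from a table of 5486 genes: Pf4, Itga2b and Car2, together with Car1, Gata1, Klf1 and Gfi1b. All 7 had a row. Their levels were read in 27 libraries. Of these, 18 were of AML cells and 9 were of GMPs, the progenitors of granulocytes and macrophages. The leukemia was made from GMPs of mT/mG mice, which express the red protein mTomato, by transduction with a pMSCV retrovirus that carries the MLL-AF9 fusion oncogene and GFP. Primary blasts of 3 donors were transplanted into further mice. These donor batches are called clones in the labels, and are named 1, 3 and 19 here. The donor cells of batches 1 and 3 came from BM and those of batch 19 from spleen, and each batch stems from 1 primary donor. Tibias and femurs were taken at full infiltration, and DAPI-GFP+mTomato+ cells were sorted from the crushed metaphysis (endosteal AML cells) or from the flushed diaphysis (central AML cells), with 3 libraries per batch and region. GMPs were sorted from the whole BM of wild-type mice matched for age and sex, and carried neither the oncogene nor the reporters. They form 3 control sets of 3 libraries, named A, B and C here. Mice of both sexes and more than 6 weeks old were used. The methods describe biological replicates, 3 for each donor batch, and 9 control mice, whereas the label of each GMP library names several mice, so pooling cannot be told from the labels. The labels tie no library to a mouse.

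Megakaryocytes, which shed platelets, and erythroid cells, which become red cells, arise from a shared progenitor on a branch of hematopoiesis that is separate from the granulocyte and macrophage branch. The transcription factor GATA1 drives both lineages together with its cofactor FOG1 (Zfpm1) and a complex of TAL1 and LMO2. KLF1 favors the erythroid fate, and GFI1B is a repressor needed for both. Pf4 encodes platelet factor 4, a chemokine stored in platelet granules, and Itga2b encodes CD41, the alpha chain that pairs with the beta chain of Itgb3 to form the platelet fibrinogen receptor. Car1 and Car2 encode carbonic anhydrases, enzymes abundant in red cells that interconvert carbon dioxide and bicarbonate.

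In the mouse genome mm10 (GENCODE M21), Pf4 lies at chr5:90772435-90773383 on the plus strand, Itga2b at chr11:102453297-102470122 on the minus strand, and Gata1 at chrX:7959260-7978071 on the minus strand. The carbonic anhydrase genes are neighbors on chromosome 3, with Car1 at chr3:14766216-14808368 on the minus strand and Car2 at chr3:14886273-14900770 on the plus strand. Klf1 lies at chr8:84901928-84905291 on the plus strand and Gfi1b at chr2:28609450-28621982 on the minus strand. All are protein-coding. In the annotation, Itga2b overlaps Gm23563 and Car1 overlaps Gm16399 on the same strand, so reads there could belong to either gene. Because libraries were read from the 3′ end of transcripts, counts should not scale with gene length. Whether levels can otherwise be compared between genes was not tested.

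Promoter windows from RefSeq (build GRCm38.p6) were given for 5 of the 7 genes, Pf4, Itga2b, Gata1, Klf1 and Gfi1b. The Gata1 window precedes an internal RefSeq start and lies wholly within the GENCODE span given above. Those of Itga2b and Klf1 lie partly within theirs. The 250 bases before each start were searched on both strands for the GATA motif (AGATAA as the first spelling, AGATAG as the second, TGATAA as the third and TGATAG as the fourth), CACCC boxes as bound by KLF1 (CCNCNCCC) and ETS motifs (spelled CCGGAA or else spelled AGGAAG). Itga2b, Gfi1b and, less clearly, Klf1 differed between donor batches. Of these, the windows of Klf1 and Gfi1b are shown. Also shown are Gata1 because it is the shared regulator, and Pf4 because it had the largest fall. Each is written 5′ to 3′ on the strand of its gene, with matches in capitals and bases that GENCODE places in an exon trimmed off.
Klf1, chr8:84901732-84901927 (+): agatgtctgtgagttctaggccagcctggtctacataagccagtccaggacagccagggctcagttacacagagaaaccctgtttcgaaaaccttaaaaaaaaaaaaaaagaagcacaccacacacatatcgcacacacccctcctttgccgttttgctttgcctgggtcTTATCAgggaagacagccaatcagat
Gfi1b, chr2:28621983-28622232 (-): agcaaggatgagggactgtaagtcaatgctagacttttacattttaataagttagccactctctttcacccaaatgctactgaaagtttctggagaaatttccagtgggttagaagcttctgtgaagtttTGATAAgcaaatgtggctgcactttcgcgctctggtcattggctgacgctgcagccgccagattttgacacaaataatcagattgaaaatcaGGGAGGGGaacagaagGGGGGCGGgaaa
Gata1, chrX:7967911-7968160 (-): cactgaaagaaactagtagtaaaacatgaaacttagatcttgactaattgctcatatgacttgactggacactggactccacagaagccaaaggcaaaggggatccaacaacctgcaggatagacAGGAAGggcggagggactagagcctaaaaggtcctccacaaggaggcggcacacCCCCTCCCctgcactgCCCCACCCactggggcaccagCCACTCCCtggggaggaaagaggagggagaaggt
Pf4, chr5:90772185-90772434 (+): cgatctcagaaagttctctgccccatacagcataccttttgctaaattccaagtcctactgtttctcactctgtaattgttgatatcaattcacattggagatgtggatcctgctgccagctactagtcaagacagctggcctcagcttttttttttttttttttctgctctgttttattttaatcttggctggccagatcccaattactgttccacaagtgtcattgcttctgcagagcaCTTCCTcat
Klf1 and Gfi1b each held 1 GATA motif, starting 80 and 120 bases before the start, and the windows of Pf4, Itga2b and Gata1 held none. A GATA motif was found in 26.6% of all 32817 promoter windows of the same length. Gata1 held 3 CACCC boxes and 1 ETS motif, and Gfi1b held 2 CACCC boxes. A CACCC box was found in 45.9% of all windows and an ETS motif in 38.2%. The single match of Pf4 was an ETS motif at its downstream end. Itga2b held 1 CACCC box and 2 ETS motifs, of which the CACCC box and 1 ETS motif fell within annotated exon sequence. RNA was measured here and not binding, so these matches describe the sequence only.

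Values are CPM, the reads of a gene scaled to the total of its library. In 24 of the libraries, the CPM worth of 1 read could be told from rounding, which gave depths of 6.94 to 13.4 M reads in AML and 5.60 to 10.7 M in GMPs. Here 0.1 CPM is about 1 read, and ratios of pooled reads below rest on these 24 libraries (17 AML, 7 GMP). Their intervals are exact 95% intervals for counting error only. GMP libraries carried GMP genes, with Mpo, Prtn3 and Elane the most abundant of 9 found, at a summed 12054 to 26951 CPM against 1530 to 6158 CPM in AML. GMP library 9 of control set A stood apart, with 747 genes at 0 CPM against 348 to 505 in the other GMP libraries, as did batch 1 library 18. These libraries entered the tests.

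Of the megakaryocyte genes, Pf4 was close to absent from AML cells, while Itga2b was reduced but kept 4.25 to 7.86 CPM in batch 1. In GMPs, Pf4 ranged from 9.32 to 69.3 CPM with a median of 46.6, and it was 48.5 ± 19.3 CPM on average (SD, n = 9). In AML it ranged from 0 to 1.10 CPM, with medians of 0.186 in batch 1, 0.225 in batch 3 and 0.113 in batch 19. Every AML library lay below every GMP library, also below library 9, the lowest GMP library. In pooled reads, 47 Pf4 reads were found in AML and 2978 in GMPs, a level 178 times higher in GMPs (134 to 243). Libraries were compared with limma on log2(CPM + 1), a scale that understates changes of low genes, over the 5160 genes left by a filter (1 CPM or more in 3 libraries). There Pf4 fell by 5.13 (SE 0.22, adjusted p = 7.02e-17), the lowest of all genes tested.

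Itga2b had a CPM near that of Pf4 in GMPs, at 45.04 ± 16.5 CPM (SD, n = 9), with a range of 16.7 to 65.3 and a median of 43.5. Its loss in AML was less complete and differed between the donor batches. With 1 primary donor per batch, donor, batch and, for batch 19, the spleen source cannot be told apart. Batch 1 libraries held 4.25 to 7.86 CPM (median 5.97), batch 3 libraries 0.603 to 1.55 (median 0.862) and batch 19 libraries 0.144 to 1.53 (median 0.49). No AML library reached the lowest GMP library. The mean of the AML groups was lower by 3.98 on the log2 scale (log2 fold change -3.98, SE 0.18, adjusted p = 2.96e-16), the 16th lowest of all genes tested.

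**Figure D1:**
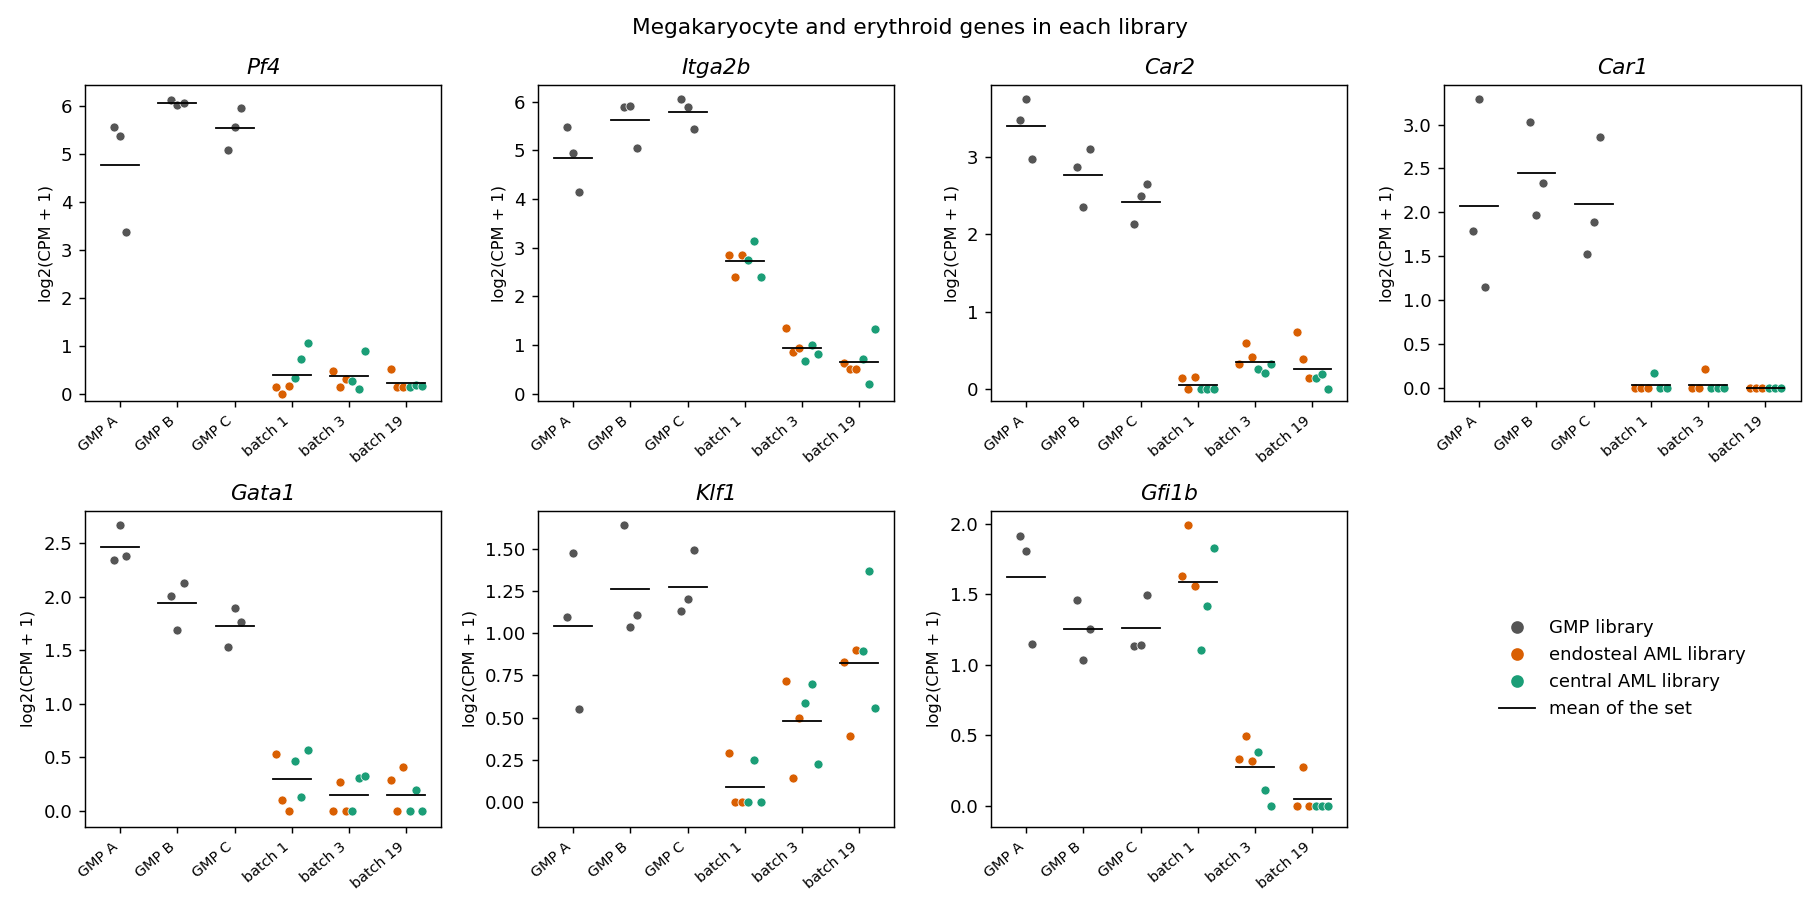
Level of each of the 7 genes in each library as log2(CPM + 1), by GMP control set and AML donor batch, with 1 point per library and a line at the mean of each set. Pf4, Itga2b, Car2, Car1 and Gata1 lie lower in all 18 AML libraries than in all 9 GMP libraries, while Klf1 and Gfi1b overlap.

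The carbonic anhydrases had lower CPM in GMPs and were also nearly lost in AML. Car2 was 6.71 ± 2.93 CPM in GMPs (SD, n = 9), from 3.38 to 12.3 with a median of 6.30. In AML it stayed between 0 and 0.664 CPM, with medians of 0 in batch 1, 0.257 in batch 3 and 0.126 in batch 19. The log2 fold change was -2.64 (SE 0.14, adjusted p = 5.95e-15), and pooled reads put Car2 38.9 times higher in GMPs (26.8 to 58.4). Car1 was 4.16 ± 2.62 CPM in GMPs (SD, n = 9), from 1.21 to 8.76 with a median of 2.92. It was at 0 in 16 of 18 AML libraries, and the other AML libraries held 0.128 and 0.165 CPM. Only 3 Car1 reads were found in the pooled AML libraries against 266 in GMPs, a ratio of 249 (84.3 to 1216), and its log2 fold change was -2.18 (SE 0.18, adjusted p = 2.84e-11). In batch 19, with 0 reads in 6 libraries, Car1 was at least 79.6-fold lower than in GMPs, set against a floor of 3 reads over the batch. The exact interval for these reads begins at 64.3-fold.

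Of the transcription factors, Gata1 showed the same pattern. It was 3.25 ± 1.12 CPM in GMPs (SD, n = 9), from 1.89 to 5.36 with a median of 3.01, and 0 to 0.487 CPM in AML, where 7 of 18 libraries had none. It was lower in AML with a log2 fold change of -1.84 (SE 0.12, adjusted p = 2.21e-13) and by pooled reads 20.8 times higher in GMPs (13.9 to 32.4). Klf1 and Gfi1b, at 1.34 ± 0.50 and 1.66 ± 0.62 CPM in GMPs (SD, n = 9), overlapped with AML. Klf1 ranged from 0.466 to 2.13 CPM in GMPs (median 1.19) and from 0 to 1.59 in AML (median 0.362). Gfi1b ranged from 1.05 to 2.77 CPM in GMPs (median 1.39) and from 0 to 2.98 in AML (median 0.253), and the highest value of all libraries was in batch 1.

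A gene was called where its adjusted p was under 0.05 and its log2 fold change was at least 1 in size. By this rule 5 of the 7 genes were called lower in AML, and 12.4% of all genes tested were called lower. Pf4, Car2, Car1, Gata1 and Klf1 passed the filter through the GMP libraries, with AML maxima of 1.10, 0.664, 0.165, 0.487 and 1.59 CPM. The filter thus favored a lower call for them, also batch by batch below and in the tests on whole reads. The same holds for genes of the lists below whose AML libraries were all under 1 CPM. The genes of the table were preselected by the authors' FDR as well, so the share is not an independent yardstick. All 7 were lower at an adjusted p under 0.05 at any fold, as were 37% of all genes. The median log2 fold change of all genes was 0.33. The exceptions to the call were Klf1 (log2 fold change -0.73, SE 0.12, adjusted p = 5.12e-06) and Gfi1b (-0.74, SE 0.11, adjusted p = 1.26e-06). For genes near 1 CPM the added 1 CPM holds the fold down. On whole reads both passed, with log2 fold changes for Klf1 of -2.20 in edgeR, -2.13 in voom and -2.41 in DESeq2, and for Gfi1b of -3.08, -2.56 and -3.16. Ratios of pooled reads were smaller than these folds, with Klf1 3.36 times (2.40 to 4.74) and Gfi1b 2.05 times (1.56 to 2.67) higher in GMPs. Both also passed with a pseudocount of 0.5, while Gata1 missed the fold threshold with a pseudocount of 3, at -0.97. The 5 called genes had all 18 AML libraries below all 9 GMP libraries, as had 6.32% of all genes. In bulk RNA, fewer cells that express a gene and less RNA per cell cannot be told apart. AML cells and GMPs also differed in how marrow was prepared, which cannot be told apart from the transformation.

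Taken batch by batch, each leukemia had 6 of the 7 genes called lower than GMPs, but not the same 6. The genes not called were Gfi1b in batch 1 and Klf1 in batches 3 and 19. Over all genes tested, 10.6% were called lower in batch 1, 15.6% in batch 3 and 16.3% in batch 19. Pf4 fell by 5.06, 5.10 and 5.24 on the log2 scale in batches 1, 3 and 19 (SE 0.29 each). Gata1 fell by 1.74, 1.89 and 1.9 (SE 0.15 each). The 3 batches share the GMP libraries, so these values are not independent.

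**Figure D2:**
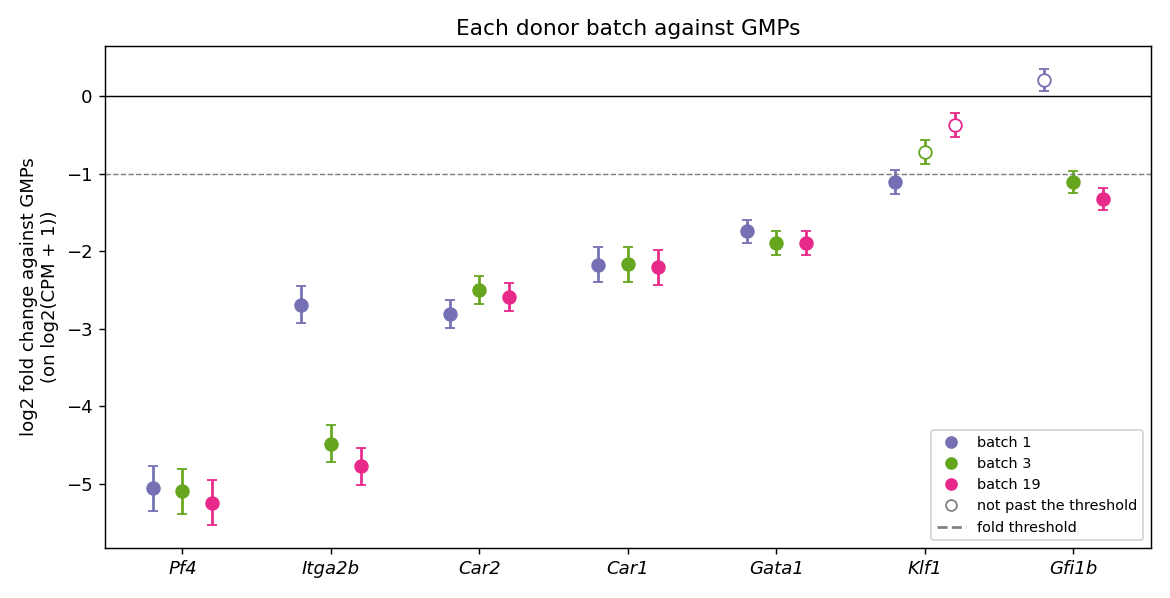
Log2 fold change of each donor batch against GMPs on log2(CPM + 1) for the 7 genes, with SE bars. Filled points passed the threshold of adjusted p and fold, and open points did not. Pf4, Car2, Car1 and Gata1 had similar values in the batches, while Itga2b spread from -4.77 to -2.69 and Gfi1b from -1.33 to 0.21.

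Direct comparison of the donor batches set batch 1 apart in Itga2b and Gfi1b. These tests rest on the spread of libraries within groups, and with 1 primary donor per batch they do not measure spread between donors. Itga2b, the CD41 chain, was higher in batch 1 than in batch 3 by 1.79 (SE 0.26, adjusted p = 7.19e-06) and than in batch 19 by 2.08 (SE 0.26, adjusted p = 3.31e-07) on the log2 scale. Gfi1b was 1.15 to 2.98 CPM in batch 1 (median 2.02), 0 to 0.408 in batch 3 (median 0.253) and 0 to 0.208 in batch 19 (median 0). It was higher in batch 1 than in batch 3 by 1.32 (SE 0.15, adjusted p = 2.9e-07) and than in batch 19 by 1.54 (SE 0.15, adjusted p = 7.21e-09), which fell under the fold threshold with a pseudocount of 3, at 0.65 and 0.73. Its level in batch 1 was near that of GMPs, with a log2 fold change of 0.21 (SE 0.14, adjusted p = 0.188) and a pooled ratio of GMPs to batch 1 of 0.789 (0.600 to 1.04). These were the 2 of 7 genes called higher in batch 1 in either pair, against 8.02% of all genes for batch 3 and 10.3% for batch 19. None of the 7 was called lower in batch 1, against 6.47% of all genes for batch 3 and 10.4% for batch 19. For both, all 6 libraries of batch 1 lay above all 12 of the other batches, as for 4.24% of all genes. Basophil and mast cell genes also differed between batches, with 4 of 9 called higher in batch 1 than in batch 3, and 5 called higher and 1 lower than in batch 19. They included Mcpt8 (2.37 against batch 3 and 1.47 against batch 19 on the log2 scale), Prss34 (1.86 and 2.26), Cyp11a1 (1.92 and 1.89) and Cpa3 (1.70 and 4.58). Their summed level was 99.8 to 174.1 CPM in batch 1, 66.5 to 92.0 in batch 3 and 229 to 279 in batch 19, where Hdc was the most abundant at a mean of 236 CPM, and their part in the result was not tested.

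Klf1 had the opposite order. Its libraries held 0 to 0.221 CPM in batch 1 (median 0), 0.102 to 0.644 in batch 3 (median 0.458) and 0.311 to 1.59 in batch 19 (median 0.817). Batches 3 and 19 overlapped with the GMP range, and batch 1 did not. Klf1 was lower in batch 1 than in batch 19 by an adjusted p of 0.000867, but its log2 fold change of -0.73 (SE 0.17) was under the threshold, and against batch 3 it was -0.39 (SE 0.17, adjusted p = 0.0667). On whole reads Klf1 passed in edgeR, voom and DESeq2, with log2 fold changes of -3.28, -3.10 and -3.51 against batch 19 and -2.28, -2.04 and -2.47 against batch 3. Pooled reads were 4 in batch 1, 21 in batch 3 and 41 in batch 19. Car2 behaved alike on whole reads, with 2 reads in batch 1, 16 in batch 3 and 12 in batch 19. It passed in all of these count tests (batch 1 against 3: -3.15, -2.07 and -2.88, batch 1 against 19: -2.53, -1.49 and -2.21), but not on log2(CPM + 1), with values of -0.31 (SE 0.20, adjusted p = 0.222) and -0.22 (SE 0.20, adjusted p = 0.374). None of the 7 genes was called between batches 3 and 19, where 5.83% of all genes were lower and 6.12% higher in batch 3, and the largest difference was Klf1 at -0.34 (SE 0.17, adjusted p = 0.137). In edgeR, voom and DESeq2 none was called for this pair either.

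**Figure D3:**
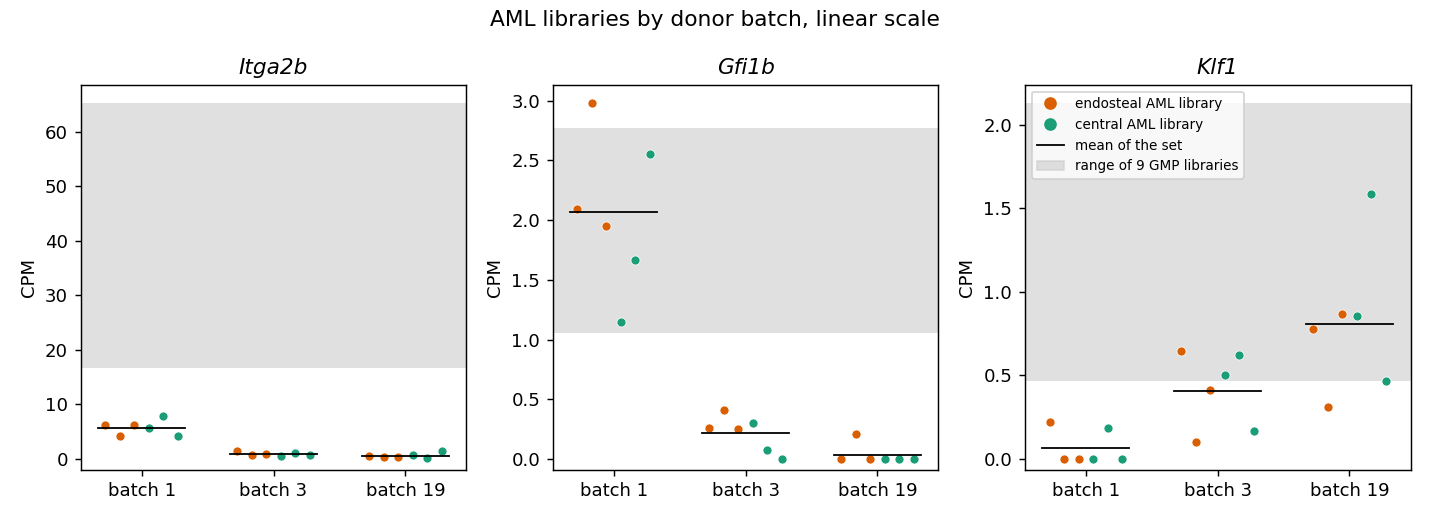
CPM of Itga2b, Gfi1b and Klf1 in the 6 AML libraries of each donor batch on a linear scale, with the mean of each batch as a line and the range of the 9 GMP libraries in grey. Itga2b and Gfi1b are highest in batch 1, where Gfi1b lies from 1.15 to 2.98 CPM, and Klf1 is lowest there, from 0 to 0.221 CPM.

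Other genes of the megakaryocyte and platelet program did not move as a block. Of 51 listed genes 22 were tested, and of the 20 other than Pf4 and Itga2b, 6 were called lower and 4 higher in AML, with a median log2 fold change of -0.06 (background 12.4% lower and 18.2% higher). Serpine2, a protease inhibitor held in platelets, fell from 67.0 ± 21.8 CPM in GMPs to 3.85 ± 2.62 in AML (SD, n = 9 and 18), a log2 fold change of -3.95 (adjusted p = 3.13e-15). Sdpr, a caveolae protein, fell from 4.83 to 0.0535 CPM (-2.36, adjusted p = 2.01e-12). The other genes called lower were F2r, Plek, Gp5 and Selp. Sdpr, F2r and Gp5, with AML maxima of 0.365, 0.129 and 0.243 CPM, passed the filter through GMPs alone, which favored a lower call. Mylk, the myosin light chain kinase, rose from 6.76 ± 2.06 to 141 ± 90.3 CPM (3.91, adjusted p = 2.66e-18), and its batch means were 49.7, 119 and 255 CPM in batches 1, 3 and 19. Gp1bb, a chain of the von Willebrand factor receptor, rose by 1.60 (adjusted p = 9.68e-05). Its batch 1 values ran from 3.20 to 112 CPM with a median of 9.67, the highest in library 18, and without that library it rose by 1.40. Coagulation factor F5 (1.38) and the ATP receptor P2rx1 (1.18) were also called higher. Nbeal2 (0.67) and Rgs18 (-0.65) were the most abundant genes that did not pass the fold threshold.

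Few other erythroid genes were called. Of 44 listed genes 18 were tested, and of the 15 other than Car1, Car2 and Klf1, 3 were called lower and 1 higher (background 12.4% lower and 18.2% higher), with a median of -0.72 against 0.33 for all genes. Kel, Cldn13, Add2, Slc4a1, Ces2g and Tspan33, with AML maxima of 0.085 to 0.895 CPM, passed the filter through GMPs alone. The filter thus favored a lower median and lower calls in this list. The water channel Aqp1 fell from 16.5 ± 8.03 CPM in GMPs (n = 9) to 0.729 ± 1.56 in AML (SD, n = 18), a log2 fold change of -3.43 (adjusted p = 8.94e-11). Icam4, a red cell adhesion molecule, fell from 10.5 to 1.74 CPM (-2.10, adjusted p = 2.44e-12), and Ces2g was the other gene called lower (-1.20). Rhd, the Rhesus antigen, rose from 1.26 to 4.87 CPM (1.43, adjusted p = 3.28e-07). Tmem14c, a porphyrin transporter, and Epb41, a membrane skeleton protein, were the most abundant and did not pass, at 0.60 and -0.30. The count of erythroid genes called lower, 5 with Car1 and Car2, was 11 with a pseudocount of 0.5 and 10 or 11 in the tests on whole reads, since several of these genes were near 1 CPM in GMPs. The 3 heme synthesis genes tested were not called, at -0.06 for Alas1, -0.85 for Alad and 0.61 for Fech. Of the other 3 carbonic anhydrases tested none was called, with values of -0.85 for Car3, -0.06 for Car13 and 0.73 for Car12. Car3 was 19.9 to 31.1 CPM in batch 19 against 2.09 to 6.65 in batches 1 and 3. Car1 and Car2 were the 2 of 5 carbonic anhydrases tested that were called.

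The partners of GATA1 split. Of 23 listed transcription factors 16 were tested. Of the 13 other than Gata1, Klf1 and Gfi1b, 5 were called lower and 2 higher (background 12.4% lower and 18.2% higher), with a median of -0.43. Tal1, the core of the GATA1 complex, was 14.3 to 19.7 CPM in GMPs (median 16.1) and 0 to 0.386 in AML (median 0.105), a log2 fold change of -3.99 (adjusted p = 7.1e-23). No library of AML came near the GMP range. Lmo2, its bridging partner, was instead higher in AML, at 112 ± 44.7 against 50.03 ± 33.5 CPM (SD, n = 18 and 9), a log2 fold change of 1.39 (adjusted p = 0.000188) with overlapping ranges. Zfpm1, the GATA1 cofactor FOG1, was 2.05 to 21.1 CPM in GMPs and fell by 2.15 (adjusted p = 2.14e-08). Like Gfi1b it was highest in batch 1, at 2.30 to 8.42 CPM (median 2.54), against 0.129 to 1.01 in batch 3 and 0.352 to 0.775 in batch 19, and batch 1 was called higher in both pairs (1.42 and 1.48, adjusted p = 0.00244 and 0.0011). The globin repressor Bcl11a (-4.44) was also lost, from 36.2 to 0.719 CPM, and Sox6 was called lower too (-1.07). Tal1 and Sox6, with AML maxima of 0.386 and 0.129 CPM, passed the filter through GMPs alone, which favored a lower call. The homeodomain factor Meis1 rose from 19.3 to 91.1 CPM (2.08, adjusted p = 1.45e-08). The most abundant genes not called were Mef2c (-0.88) and Zbtb7a (0.61). Mef2c held 123 to 1065 CPM in batch 1, the highest in library 18, and had a mean of 322 CPM there, or 174 without that library, against 12.97 in batch 19. It was called lower in AML without library 18 (-1.03).

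Among integrin chains, Itga2b was the only one called lower of 14 tested. Of the other 13, 6 were called higher and none lower (background 12.4% lower and 18.2% higher), with a median of 0.26. The leukocyte beta chain Itgb2 rose by 3.14 (adjusted p = 5.37e-12), the myeloid alpha chain Itgam by 2.43 (adjusted p = 1.07e-12), Itgb5 by 2.30 and Itgax by 1.57. Itgb1 and Itgal were the most abundant chains that did not pass, at -0.40 and -0.41. Itgb3, the partner of Itga2b, was 8.30 ± 2.28 CPM in GMPs (n = 9) and 10.8 ± 7.70 in AML (SD, n = 18), with a log2 fold change of -0.00 (adjusted p = 0.999). This mean covered unlike batches, with 11.0 to 24.2 CPM in batch 1, 6.37 to 17.7 in batch 3 and 1.15 to 3.65 in batch 19. Itgb3 was called higher than in GMPs in batch 1 (1.01, adjusted p = 0.000271) and lower in batch 19 (-1.45, adjusted p = 1.99e-06). Both chains of the receptor were thus lower in batch 19, whereas batch 1 had the higher level of Itgb3 and the smaller loss of Itga2b. Counts in this list turned on a few genes, since Itga6 was also called lower without library 18 (-1.02) and Itga1 was not called higher without library 9 (0.94).

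**Figure D4:**
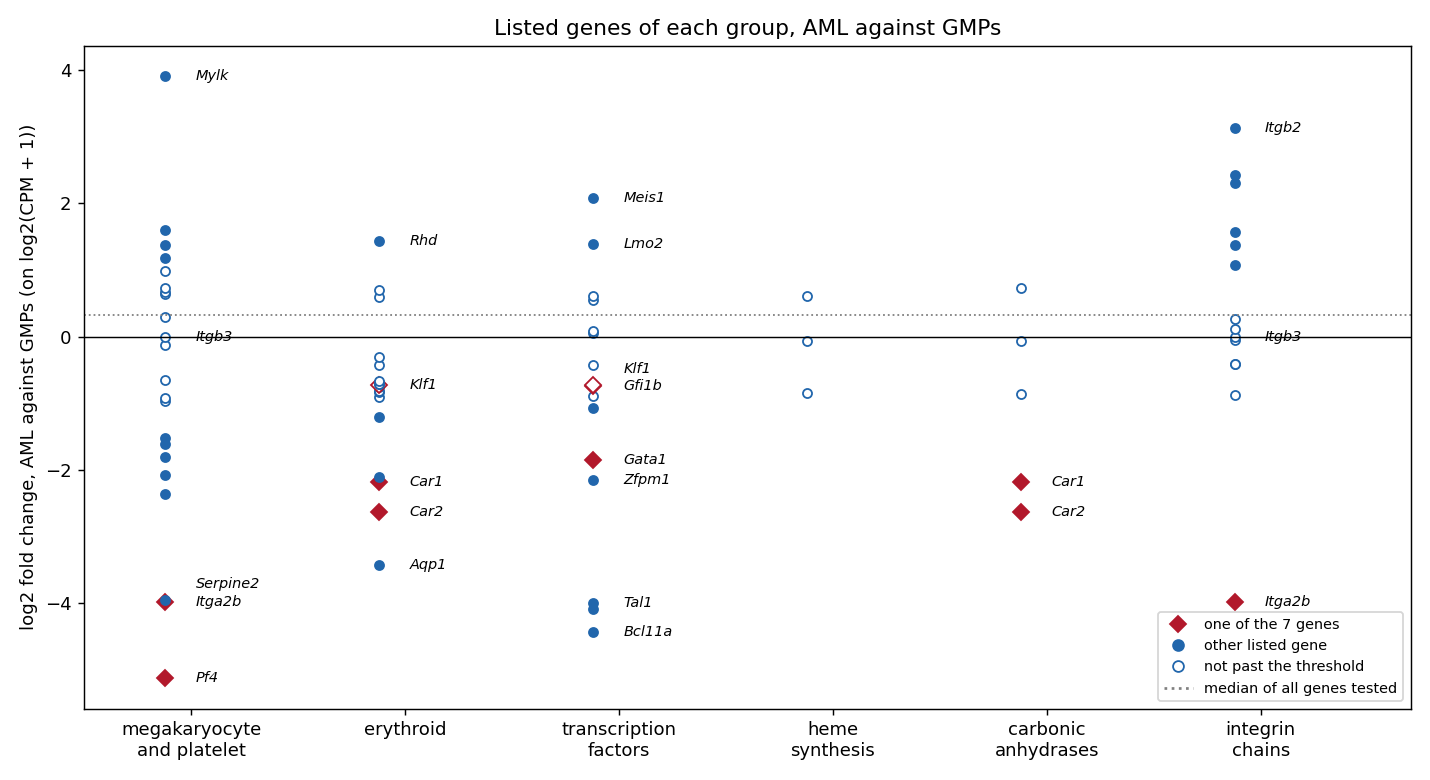
Log2 fold change of AML against GMPs on log2(CPM + 1) for the tested genes of 6 lists, with the 7 genes as diamonds and other genes as circles, filled where the threshold was passed. Tal1 and Bcl11a lie at -3.99 and -4.44 beside Itga2b, while Meis1, Lmo2, Mylk and Itgb2 lie above 0, and the dotted line is the median of all genes at 0.33.

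Markers of other cell types also differed between AML and GMPs. Of the 9 basophil and mast cell genes tested, 8 were called lower in AML (background 12.4%), with summed levels of 66.5 to 279 CPM in AML and 192 to 408 in GMPs. The most abundant were Hdc, Cpa3 and Mcpt8, and their fall was not shared by all batches. Cpa3 averaged 62.8 CPM in batch 1 and Hdc 236 in batch 19, against 34.3 and 193 in GMPs. Mcpt8 averaged 27.5 CPM in batch 1 against 28.9 in GMPs. In the remaining batches each had a mean below that of GMPs. Gzmb, at 0 in all AML libraries, Fcer1a and Il1rl1 (AML maxima of 0.111 and 0.256 CPM) passed the filter through GMPs alone, which favored a lower value. Of 7 stem and multipotent progenitor genes tested, 4 were called lower, at 3.24 to 16.9 CPM in sum against 80.6 to 260, with Ifitm1 and Cd27 the most abundant. Neutrophil and macrophage genes went the other way, with 8 of 10 and 5 of 7 called higher (background 18.2%). Without library 18 these counts were 9 and 4, since Retnlg passed (1.04) and C1qa did not (0.96). GATA1 is also made in cells of the basophil and mast cell lineage, and the part of such cells in these results was not tested.

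Within GMPs the 7 genes did not share a single profile. Car2 and Gata1 followed the control sets. Car2 was 9.75, 5.97 and 4.42 CPM on average in sets A, B and C, and Gata1 was 4.54, 2.86 and 2.33 CPM (n = 3 each). Every Gata1 value of set A, the lowest being 4.08 CPM, lay above those of sets B and C. Itga2b had the reverse order, at 30.0, 49.9 and 55.3 CPM, and Pf4 was highest in set B at 66.4 CPM. Over the 9 GMP libraries Pearson's r on log2(CPM + 1) was 0.94 for Car2 and Gata1 (0.98 without library 9), 0.89 for Klf1 and Car1 (0.86) and 0.69 for Pf4 and Itga2b, where it was -0.08 without library 9. Itga2b ran against Gata1 (-0.73, and -0.78 without library 9) and against Car2 (-0.57 and -0.82). Car2 and Gfi1b had an r of 0.81 (0.87 without library 9). Further pairs are not listed. These libraries share sets and preparation, so the values are descriptive.

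Genes with the most similar levels were sought by Pearson's r over the 27 libraries, which mostly reflects the difference between AML and GMPs. For Pf4 these were Khdrbs3, Ablim1 and Fam171a1 (r = 0.99 each), for Itga2b Aff3, Vamp5 and Phgdh (0.98, 0.97 and 0.97), and for Car2 Myct1, Ppic and Smo (0.98 each). Gata1 had Smo, Car2 and Myct1 as its nearest (0.97 each), so Car2 and Gata1 were near each other in both sets of libraries. Car1 was nearest to Hemgn (0.98), Slc18a2 and Sdpr (0.96 each). Klf1 had no gene above 0.87, with 1700025G04Rik the nearest, and Itih5 and Igf1r were near to Gfi1b (0.93 each). Over the 9 GMP libraries the nearest gene was Sfxn2 for Pf4 (0.97), Platr25 for Itga2b (0.99), Prrc2b for Car2 (0.97), Schip1 for Gata1 (0.95), Slc35e4 for Klf1 (0.96), Cep57l1 for Car1 (0.93) and Cep350 for Gfi1b (0.99).

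Endosteal and central AML cells were compared because the study asked whether leukemia cells differ between marrow regions. With donor batch as a term, 0 of 4820 genes passed an adjusted p of 0.05 in limma (0%). At an unadjusted p under 0.05 there were 223, and adjusted calls were 0 in edgeR (172 unadjusted), 0 in voom (165) and 1, Smim5, in DESeq2 (226). A different effect of region between batches was found for 0 genes (0%). Itga2b and Gfi1b reached 1 CPM in enough AML libraries to be tested. Itga2b was 0.415 to 6.19 CPM in endosteal libraries (median 0.909) and 0.144 to 7.86 in central libraries (median 1.01), a difference of -0.02 on the log2 scale (SE 0.15, adjusted p = 0.988). Gfi1b was 0 to 2.98 CPM (median 0.258) and 0 to 2.56 (median 0.078), a difference of 0.20 (SE 0.11, adjusted p = 0.887).

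An exact permutation test of region within batches (two-sided, 8000 arrangements) was run for each of the 7 genes, without adjustment. Car2 was higher in endosteal libraries by 0.20 on the log2 scale (exact p = 0.003), with means higher in endosteal libraries by 0.10, 0.18 and 0.31 in batches 1, 3 and 19. This rested on 23 reads in 9 endosteal libraries and 7 reads in 8 central libraries, with 0 to 6 reads per library. In limma over all 5486 genes without a filter its adjusted p was 0.871. The other exact p values were 0.05 for Gfi1b, 0.169 for Pf4, 0.471 for Klf1, 0.644 for Gata1, 0.9 for Itga2b and 1 for Car1. Pf4, Klf1 and Gata1 had lower endosteal means, at -0.20, -0.09 and -0.04. Region was released by crushing or by flushing, and region and handling cannot be told apart.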

How the data were processed

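Total RNA of 18 AML and 9 GMP samples was made into QuantSeq 3′ libraries. Per the labels and methods, the authors trimmed reads with Cutadapt 1.9, mapped them to mm10 with HISAT2 and counted them with featureCounts. CPM values, deposited by the authors with 3 decimals, are reads scaled to each library's total. The table holds 5486 genes chosen by the authors' FDR and 22.0% to 28.3% of the reads, so shares of genes describe these preselected genes. The log2 fold change and mean log2 columns and the FDR (adjusted p-value) columns, deposited by the authors, were not used.

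Columns were assigned to groups by the names of batch, region and control set. For the main test, limma 3.58.1 was applied to log2(CPM + 1) (R 4.3.3, trend, two-sided, Benjamini-Hochberg) for genes with at least 1 CPM in 3 libraries, with 6 AML groups and GMPs in 1 fit. Regions were compared with batch as a term. Whole reads, recovered to within 0.1 of a read for 100% of values under 20 CPM, served for further tests in 24 libraries, by edgeR 4.0.16, DESeq2 1.42.0 and voom. Scripts were tested on simulated data.

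The members and lists were chosen with earlier results of these data known. From each list the text names up to 4 called genes with the largest change per direction and the 2 most abundant genes not called. Further genes, such as Itgb3, Mef2c by batch, Car3 by batch, and genes that complete a count, were named after their values were seen. Some genes that this rule would name are not reported here.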

Additional observations from a re-analysis of the deposited data

Results flagged for a closer look

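In groups of 6 or 9 libraries, 28 combinations of gene and group were searched for a library far from the others. Of these, 5 were flagged. The rule is set for about 1 in 20 by chance, but this rate does not hold for groups mostly at 0. Car1 in batches 1 and 3 and Gfi1b in batch 19 were at 0 in 5 of 6 libraries. There, a single library with any read is flagged. Pf4 was lowest in GMP library 9 of control set A, at 9.32 CPM against 33.2 CPM or more in the other GMP libraries. Without this library Pf4 was 53.4 ± 13.4 CPM in GMPs (SD, n = 8). The other 4 were single high AML libraries worth a few reads, namely Pf4 at 0.443 CPM in library 10 of batch 19, Car1 at 0.128 CPM in library 17 of batch 1 and at 0.165 CPM in library 5 of batch 3, and Gfi1b at 0.208 CPM in library 12 of batch 19.

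The change from GMPs differed between donor batches, by a test of the difference itself, for Itga2b and Gfi1b. Since the GMP term cancels, this is the direct comparison of batches given above and not a further result. Its limit of 1 primary donor per batch holds here too. Itga2b differed by 1.79 between batches 1 and 3 and by 2.08 between batches 1 and 19 on the log2 scale, and Gfi1b by 1.32 and 1.54. All 6 libraries of batch 1 showed these directions.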

How the results depend on the processing

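Of 1729 values of the 7 genes and of the list counts recomputed under alternatives, 1690 kept their side of the threshold and 39 changed. No value that was called, before or after, changed its sign. Small differences that were not called could change sign and were taken as kept. Itga2b between regions, for example, ran from -0.09 to 0.08 with single libraries left out. A count within 1.5 times of the main one was taken as kept. Pseudocount 3 put Gata1 (-0.97, AML against GMPs) and Gfi1b (0.65 and 0.73, batch 1 against batches 3 and 19) under the fold threshold and gave 0 in place of 1 erythroid gene called higher. Pseudocount 0.5 brought Klf1 (-1.06) and Gfi1b (-1.10) past it against GMPs, Klf1 (-1.16) past it between batches 1 and 19, and 11 in place of 5 erythroid genes called lower. Without donor batch 1, Gfi1b was called at -1.22. In edgeR, voom and DESeq2 on whole reads, Klf1 (-2.20, -2.13 and -2.41) and Gfi1b (-3.08, -2.56 and -3.16) were called lower in AML. Between batches 1 and 3 these tests called Car2 (-3.15, -2.07 and -2.88) and Klf1 (-2.28, -2.04 and -2.47), and between batches 1 and 19 Car2 (-2.53, -1.49 and -2.21) and Klf1 (-3.28, -3.10 and -3.51). They called 11, 10 and 11 erythroid genes lower. An added CPM holds down folds of genes near 1 CPM, and the cause was otherwise not tested.

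Of the small list counts, transcription factors called higher were 1 in place of 2 in edgeR, in DESeq2 and without control set C. Heme synthesis genes called lower were 1 in place of 0 without control set A, and carbonic anhydrases called higher 1 in place of 0 without donor batch 19. Integrin chains called lower were 2 in place of 1 with quantile normalization, without donor batch 1 and in central AML libraries alone, and 1 to 2 with single libraries left out (2 without library 18). Leaving out single libraries changed no call of the 7 genes, and moved counts by at most 1, to 4 to 6 erythroid genes, 8 to 9 megakaryocyte genes and 6 to 7 transcription factors called lower, and 4 to 5 megakaryocyte genes and 5 to 6 integrin chains called higher. The alternative chosen after seeing the data, without libraries 9 and 18 together, changed no call of the 7 genes and moved counts by at most 1 (7 transcription factors called lower and 5 integrin chains called higher). TMM scaling moved the median log2 fold change of all genes from 0.33 to 0.22 and quantile normalization to 0.18, and the 5 genes called lower stayed called. Over all genes, limma called 641 lower and 939 higher, edgeR 1014 and 1287, voom 989 and 1386, and DESeq2 1142 and 1179.

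No paired analysis was possible because the labels do not pair endosteal and central libraries or number the replicates. Library numbers alternate between regions, but no source ties neighboring numbers to 1 mouse. In AML, values under about 0.3 CPM are 0 to 3 reads, so differences between batches or regions at that level were hardly detectable at this depth.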
